A study of Mus musculus with 12 samples.

Results

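Chromatin accessibility after 3 drugs given together was compared with accessibility after the LSD1 inhibitor alone, in cultured mouse myeloid progenitors on day 2. The comparison rests on 4 of the 12 libraries of the series, 2 titled Combo and 2 titled LSD1i, which were chosen by their titles. All libraries came from bone marrow cells of C57BL6 mice that carry ER-HOXA9, in which HOXA9, a homeodomain protein tied to leukaemia, is joined to an estrogen receptor part. All were grown with serum, stem cell factor and beta-estradiol, so every group shares the fusion protein and its hormone. The LSD1i cells received 200 nM GSK-LSD1, which blocks LSD1. The Combo cells received the same 200 nM GSK-LSD1 with 5 uM of the purine analogue mercaptopurine and 5 uM of cerulenin, an inhibitor of fatty acid synthase. Further day 2 groups of 2 libraries each received DMSO (Vehicle), 5 uM mercaptopurine alone (6MP) or 5 uM cerulenin alone (CER), and a Day0 group was untreated. The labels call the 2 libraries of a group biological replicates and do not say whether they came from separate animals or separate cultures of 1 line.

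LSD1, encoded by Kdm1a, removes methyl groups from lysine 4 of histone H3. It is brought to enhancers of myeloid genes by the repressors GFI1 and GFI1B within the CoREST complex, and its inhibitors are known to induce differentiation of myeloid leukaemia cells. Mercaptopurine is converted to thiopurine nucleotides that block purine synthesis and enter DNA, and cerulenin binds the condensing site of fatty acid synthase and limits the making of long-chain fatty acids. ATAC-seq reads open chromatin through a transposase that inserts adapters where DNA is accessible, so a peak marks a promoter or an enhancer that is open in some of the cells. In such bulk libraries, more open cells and more opening per cell cannot be told apart.

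The authors listed 50733 and 56398 peaks for the LSD1i libraries and 55713 and 55630 for the Combo libraries. Peaks of all libraries that shared at least 1 base were joined into 73156 regions, of which 65144 held a peak in at least 1 of the 4 libraries and 43671 in all 4. The value used is the summit signal, the log2 of the fragment pileup at the highest summit of a region over the background of its library. The median pileup of the 4 libraries was 65, 67, 74 and 75 fragments, which sets the counting error at weak regions. Signal at regions common to all 12 libraries stood at a median of 28.5 and 31.9 times background in LSD1i and at 35.9 and 42.7 times in Combo, so enrichment moved with the comparison. Libraries were therefore centred on these common regions. Without centring, the median difference of all regions was +0.33 on the log2 scale, against -0.04 with it, and all differences given here are relative to that shift. The part of enrichment in single regions was not tested beyond the scalings given. The 2 LSD1i libraries and the 2 Combo libraries were the closest replicate pairs, with an SD between replicates of 0.161 and 0.165, against 0.177 to 0.222 in Day0, Vehicle and CER and 0.315 in 6MP. Across regions, log2 folds in the authors' deposited table for LSD1i against Vehicle correlated with the same difference between the labelled libraries at r = 0.959 (18131 regions), and those in the authors' deposited table for Combo at r = 0.970 (4878 regions). For 6MP the authors' deposited table gave r = -0.228 (17990 regions), so the libraries labelled 6MP do not follow the table of that name, and every value given for 6MP is that of the libraries so labelled.

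With mercaptopurine and cerulenin added to the LSD1 inhibitor, single regions were more open, among them regions inside or nearest to Dusp2, Lgmn, Sgms1, Glrx and Fn1. A few were less open, among them regions inside Acacb, Acad10 and Gng7. In the limma fit on all 12 libraries, 29 of 43671 regions differed at an adjusted p of 0.05. Of these, 24 were higher in Combo, which is 0.055% of the regions tested, and 5 were lower, which is 0.0114%. The higher regions rose 1.68-fold to 3.91-fold (median 2.12-fold) and the lower ones fell 1.78-fold to 2.31-fold. Of the 24 higher regions, 2 lay within 5 kb of a gene end and 4 over 100 kb from one. Of the 5 lower regions, 0 lay within 5 kb. A gene name marks the nearest gene, and which gene a region acts on was not tested. At each of the 29 regions both Combo values lay on the same side of both LSD1i values. The regions were called on these same values, so this adds no separate evidence. It also means that leaving out 1 of these libraries cannot reverse a direction. Differences are given on the log2 scale as estimate ± SE with n = 2 libraries per group, and each adjusted p is from limma. At an unadjusted p of 0.05, 4668 regions passed. No region was called in this fit when any 1 of the 4 libraries was left out (2067 to 4261 at an unadjusted p of 0.05), and all 29 kept their direction. With the mean over all summits of a region in place of the highest, 4 regions were called and none of the 29. With scaling by depth alone, 15 of the 29 were called. The genes are grouped by what they are known to do, a grouping made after the calls were seen.

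**Figure D1:**
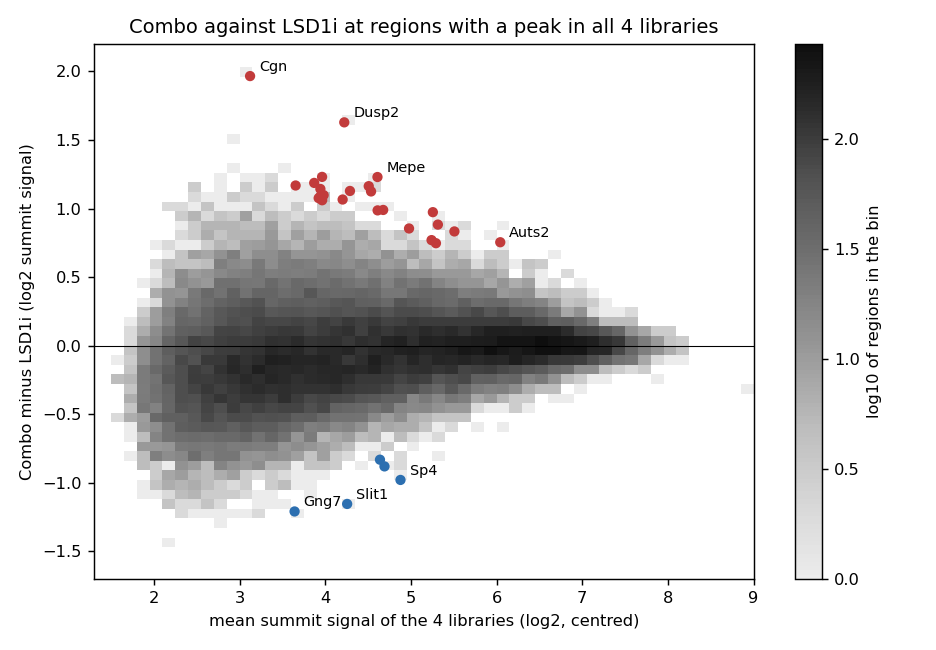
Difference between Combo and LSD1i (vertical, log2 summit signal) against the mean summit signal of the 4 libraries (horizontal, log2) for 43671 regions, with grey squares shaded by the log10 of the number of regions in them. Red points are the 24 regions higher in Combo and blue points the 5 lower ones; the called regions lie at the edge of the cloud, between a difference of -1.21 at Gng7 and 1.97 at Cgn.

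One of the largest rises lay 12308 bases from Dusp2, which encodes a dual-specificity phosphatase that switches off MAP kinases (mm10, chr2:127322471-127323974). Its summit signal was 3.35 and 3.47 in the LSD1i libraries and 4.94 and 5.13 in the Combo libraries, from pileups of 39, 50, 162 and 190 fragments. Combo was thus higher by 1.63 ± 0.29 (limma adjusted p = 0.0256). The same region stood at 5.33 and 3.72 in Vehicle, 5.17 and 5.52 in 6MP and 5.25 and 5.20 in CER, so the LSD1i libraries were the lowest of day 2. In the authors' deposited table for LSD1i against Vehicle it was listed as closed, at a log2 fold of -0.90.

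A region 1905 bases from Cgn, which encodes the tight junction adaptor cingulin, rose most in size (chr3:94758057-94759250, over the promoter of the uncharacterised gene Gm52626). It measured 2.46 and 1.82 in LSD1i and 3.79 and 4.42 in Combo, a rise of 1.97 ± 0.38 (limma adjusted p = 0.0446). The pileups behind it were small in LSD1i, 21 and 16 fragments against 73 and 116. 6MP replicate 1 had no peak there and was left out of the fit of this region. As at Dusp2, the Vehicle libraries were far apart, with replicate 1 the higher at 4.59.

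Lgmn, Dab2 and Naip2 are genes of lysosomes, endocytosis and the sensing of bacteria. A region inside Lgmn, the gene of the lysosomal protease legumain (chr12:102426183-102426828), measured 3.82 and 4.13 in LSD1i and 5.22 and 4.97 in Combo. Its rise was 1.12 ± 0.19 (limma adjusted p = 0.0256), and the 6MP libraries reached 4.88 and 5.43. A region inside Dab2, an adaptor for receptor endocytosis, measured 3.92 and 4.32 in LSD1i and 5.09 and 5.12 in Combo. Inside Naip2, a cytosolic sensor of bacterial secretion systems, the values were 3.74 and 3.60 in LSD1i and 4.79 and 4.68 in Combo; Naip2 has close copies beside it, and how reads that match several copies were placed is not given in the sources used here. The rises at Dab2 and Naip2 were 0.99 ± 0.19 and 1.07 ± 0.20 (limma adjusted p = 0.0446 and 0.0307). At all 3 genes both CER and both 6MP libraries were above both Vehicle libraries, except CER replicate 1 at Lgmn, with the limit on the label of 6MP given above.

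Sgms1, Glrx and Mcu belong to lipid, redox and mitochondrial metabolism. Sgms1, which encodes sphingomyelin synthase 1, held a region with 3.35 in both LSD1i libraries and 4.39 and 4.76 in Combo (chr19:32298105-32298710; rise 1.23 ± 0.23, limma adjusted p = 0.0307). Near Glrx, the gene of the thiol reductase glutaredoxin, the signal went from 3.46 and 3.41 in LSD1i to 4.53 in both Combo libraries (1.10 ± 0.22, adjusted p = 0.0499). Inside Mcu, the pore of the mitochondrial calcium uniporter, it went from 4.76 and 4.98 to 5.79 and 5.72 (0.88 ± 0.16, adjusted p = 0.0307). As at every called region, the groups did not overlap at these. A region 85071 bases from Ndufb6, a subunit of respiratory complex I, rose by 1.14.

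Spp1, Fn1, Tiam1, Inf2 and Arhgef38 have roles in adhesion and the cytoskeleton. The region nearest to Mepe, 42133 bases away, carries the name of Spp1, the gene of osteopontin, in the authors' deposited table (chr5:104380418-104381825). It measured 3.79 and 4.20 in LSD1i and 5.19 and 5.26 in Combo, with 3.51 to 4.73 in the Vehicle, 6MP and CER libraries, so both Combo libraries were above every other library of day 2. The rise was 1.23 ± 0.21 (limma adjusted p = 0.0256). A region 77854 bases from Fn1, which encodes fibronectin, rose by 0.75 ± 0.14, with 4.80 and 5.03 in LSD1i and 5.72 and 5.61 in Combo. Regions inside Tiam1, an activator of the GTPase Rac, and near Inf2, an actin-nucleating formin, rose by 0.85 ± 0.16 and 0.99 ± 0.17 (limma adjusted p = 0.0307 and 0.0256). Inside Arhgef38, a guanine nucleotide exchange factor, the rise was 1.08 ± 0.21 (adjusted p = 0.0497).

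The remaining higher regions were inside Auts2, Rbm20, Rnf10, Nsf and Lrmda, near 2210010C04Rik and Map3k7cl, and over 100 kb from any gene end outside a gene at 3 sites nearest to Zfat, Adgrl2 and Ntrk2. Auts2, which encodes a partner of Polycomb complexes, had the highest signal of all called regions, 5.66 and 5.67 in LSD1i and 6.36 and 6.48 in Combo (chr5:132466482-132468415; rise 0.75 ± 0.15, limma adjusted p = 0.0446). Its Vehicle values were 4.54 and 4.77, so the region was higher with the LSD1 inhibitor and higher again with all drugs. The authors' deposited tables list it at +0.79 for LSD1i and +1.94 for Combo. A region inside Nsf, the gene of an ATPase of vesicle fusion (chr11:103896661-103897658), had no listed peak in any Vehicle, 6MP or CER library. It measured 3.52 and 3.03 in LSD1i and 4.35 and 4.57 in Combo (1.19 ± 0.23, adjusted p = 0.0499), and the authors' deposited tables give +2.62 and +4.21. The rest rose by 0.77 to 1.17.

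The level that the LSD1 inhibitor alone gave differed between these sites. Of the 24 higher regions, the LSD1i mean was below the Vehicle mean at 13, as at Dusp2, and above it at 10, as at Auts2. The authors' deposited table for LSD1i lists 9 of the 24 as closed, 4 as opened and does not list 11. Its counterpart for Combo lists 20 as opened and none as closed. Both tables share the Vehicle libraries, and each shares a group with the comparison made here, so these values are set side by side only. In 11 of the 24, both Combo libraries lay above every other library of day 2 that had a peak. The 24 regions were chosen as higher in Combo than in LSD1i. No share over all regions is given for these counts, so they only describe the 24.

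**Figure D2:**
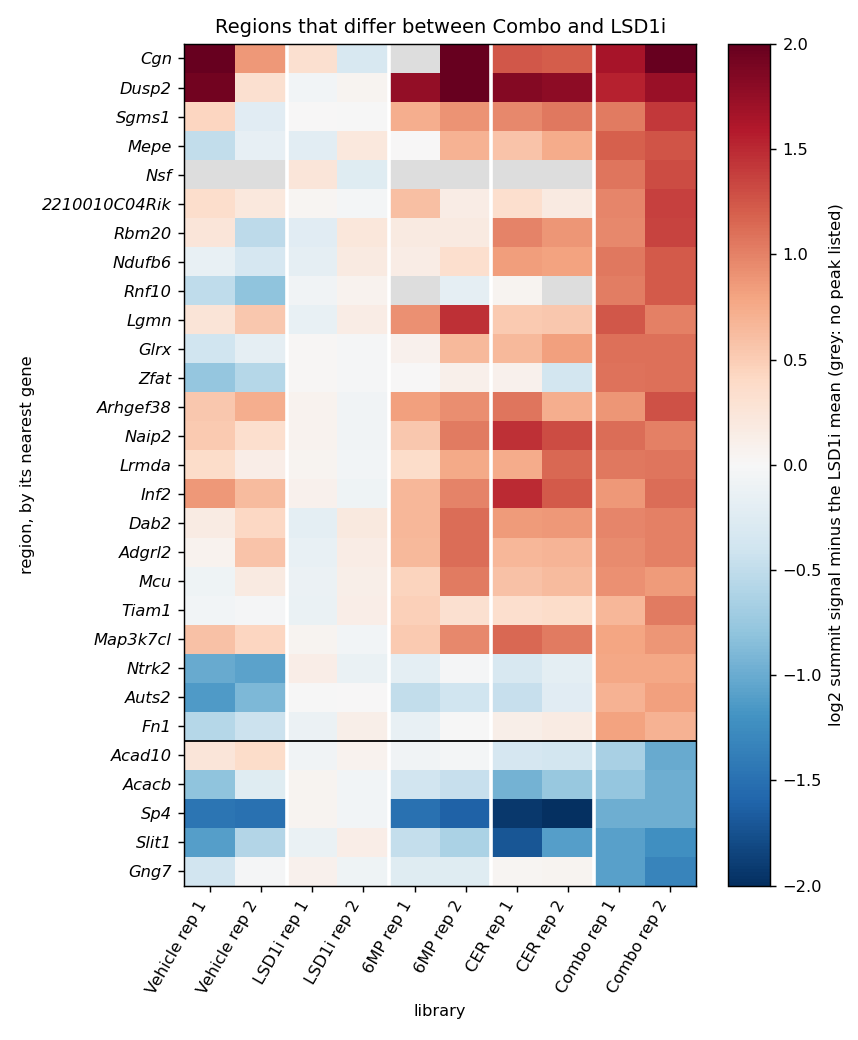
Summit signal of the 29 called regions (rows, by nearest gene) in the 10 day 2 libraries (columns), as log2 difference from the mean of both LSD1i libraries; grey cells had no listed peak. The 24 rows above the line are higher in Combo; Dusp2 is also high in Vehicle replicate 1, 6MP and CER, while Mepe, Zfat and Auts2 are highest in Combo.

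Among the 5 lower regions, 2 lie inside genes of fatty acid metabolism. Acacb encodes acetyl-CoA carboxylase 2, whose product malonyl-CoA restrains the entry of fatty acids into mitochondria, and Acad10 encodes a protein of the acyl-CoA dehydrogenase family. The Acacb region (chr5:114193788-114194577) measured 5.19 and 5.07 in LSD1i and 4.35 and 4.15 in Combo, and fell by 0.88 ± 0.18 (limma adjusted p = 0.0499). Its values in CER, 4.19 and 4.38, were as low as in Combo, while Vehicle stood at 4.33 and 4.89 and 6MP at 4.76 and 4.66. The Acad10 region fell by 0.83 ± 0.17 (adjusted p = 0.0499), from 4.98 and 5.13 to 4.41 and 4.04, and both Combo libraries were below every other library of day 2.

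The other lower regions are at genes of signalling and transcription. Inside Gng7, a gamma subunit of heterotrimeric G proteins (chr10:80994755-80995489), the signal was 4.33 and 4.16 in LSD1i and 3.15 and 2.92 in Combo. It fell by 1.21 ± 0.23 (limma adjusted p = 0.0395), while CER alone stood at 4.28 and 4.30 and 6MP alone at 4.00 in both libraries. Inside Slit1, a secreted guidance ligand, the signal fell by 1.15 ± 0.22, from 4.69 and 4.97 to 3.75 and 3.61. A region 10287 bases from Sp4, a transcription factor that binds GC boxes, fell by 0.98 ± 0.15 (adjusted p = 0.0192). Its values were 5.42 and 5.32 in LSD1i, 4.39 and 4.38 in Combo, and 3.30 to 3.91 in the other day 2 libraries. The authors' deposited tables list the overlapping site at +1.25 for LSD1i and at +1.23 for Combo, both against Vehicle, so they do not show the difference seen at its highest summit. The lower region with the next largest statistic, which did not pass, was inside Wnt7b, a secreted ligand, at -0.85 ± 0.17 (adjusted p = 0.0562).

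The same regions were read in the libraries of the single drugs, which share no library with this comparison. Of the 24 higher regions, 21 had a peak in all Vehicle, CER and 6MP libraries. Both CER libraries lay above both Vehicle libraries at 18 of these 21, or 85.7%, where 24.6% of 34229 regions did so. Both 6MP libraries lay above both Vehicle libraries at 16 of 21, or 76.2%, against 12% of all. None of the 21 had both CER libraries below both Vehicle libraries, and none had both libraries labelled 6MP below them. The median difference from Vehicle was +0.64 in CER and +0.56 in 6MP at these sites, against +0.03 and 0.00 over all tested regions. Of the 5 lower regions, 2 had both CER libraries and 1 had both 6MP libraries below Vehicle, where 19.3% and 10.2% of all regions did, and 1 had both CER libraries above it. The direction of a region was not selected on these libraries, but the spread of all 12 libraries entered the fit that selected it. A fit with the spread of the 4 libraries alone, described below, gave lower shares. At 1125 of its higher regions, both CER libraries lay above both Vehicle libraries at 48.0% and below them at 3.02%. For the libraries labelled 6MP these shares were 33.3% and 1.96%. The median differences from Vehicle there were +0.27 in CER and +0.18 in 6MP.

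**Figure D3:**
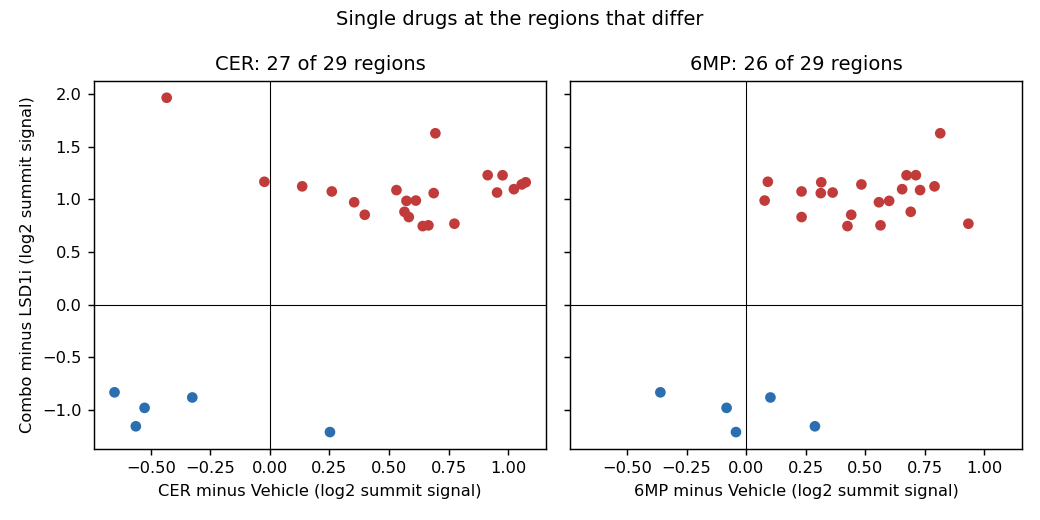
Combo minus LSD1i (vertical) against CER minus Vehicle (left panel, 27 of 29 regions with a value) and 6MP minus Vehicle (right panel, 26 of 29) at the called regions, all in log2 summit signal, red higher and blue lower in Combo. Most red points lie right of 0 in both panels, with Cgn at the left in CER.

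Across the 33368 regions common to all libraries, Combo minus LSD1i had a Pearson correlation of 0.370 with CER minus Vehicle (Spearman 0.334) and of 0.208 with 6MP minus Vehicle (0.186). With centring by intensity these Pearson values were 0.363 and 0.266. The points are regions of the same libraries, which are not independent. Whether the added drugs on top of the LSD1 inhibitor differed from the sum of each drug alone was tested with limma at 34229 regions with a peak in all 10 day 2 libraries. No region passed, and 1104 had an unadjusted p under 0.05. The median SE of this contrast was 0.368 on the log2 scale, so only departures of well over that size could have been seen in a single region. The sum holds the libraries labelled 6MP, so if their label is wrong the contrast and its count do not answer the question for mercaptopurine. This count was 0 under each alternative run except without Vehicle replicate 1, where it was 3.

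When the spread is taken from the 4 libraries alone, which are the most alike, many more regions separate the groups. This fit called 1266 higher regions in Combo, 2.9% of those tested, and 1023 lower, 2.34%. All 29 regions above were among them, with the same estimates as before, since only the spread differs between the 2 fits. The larger count rests on 2 residual degrees of freedom and the limma prior, and on Combo replicate 2 in particular, since 475 regions were called without it (261 higher and 214 lower) against 1021 to 2594 without any other library. With 1 library left out, the lone library of its group adds nothing to the spread, which then comes from the other pair, so that it is assumed to vary alike. Of the 2289 calls, 252 higher and 174 lower remained without Combo replicate 2. The balance of directions also depends on the scaling. It was 1167 higher and 426 lower with centring by intensity, 1180 and 493 with quantile normalization, and 9922 and 31 when scaled by depth alone, where the fit on 12 libraries called 140 and 0.

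Of the gene lists, mature neutrophil genes had the highest share of higher regions in the fit on 4 libraries, under centring on common regions. Of its 43 regions, 8 rose, or 18.6% (against 2.9% of all regions), and none fell (against 2.34%). Those that rose belong to 8 different genes. They include Camp (the antimicrobial cathelicidin), Lcn2 (the iron-siderophore binder lipocalin 2), Ifitm6, Il1b, Fpr1 (a formyl peptide receptor), Chil3 and Mmp8 (the neutrophil collagenase). None of the 8 passed in the fit on 12 libraries, where adjusted p was 0.149 to 0.487, and the median difference of all 43 regions was +0.01, against -0.04 over all regions. Of the 8, 4 passed with centring by intensity and 4 with quantile normalization, a share of 9.30% in each, beside 9.16% for the monocyte list. With scaling by depth 32.6% of the list was higher, against 22.7% of all regions. The lists of cell cycle (35.9%), primary granule (34.3%), integrated stress response (33.3%) and the LSD1-CoREST-GFI1 complex (33.3%) then stood above it. With 1 library left out, 2 of the 8 remained without LSD1i replicate 1 or Combo replicate 2, 4 without LSD1i replicate 2 and 5 without Combo replicate 1.

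The 8 regions were not alike in the other groups. The Camp promoter region measured 3.42 and 3.35 in LSD1i and 4.27 and 4.22 in Combo, and rose by 0.86 ± 0.20 (limma on 4 libraries, adjusted p = 0.00229). In CER alone it stood at 4.15 and 4.47 and in Vehicle at 3.45 and 3.08, so the LSD1i mean lay near that of Vehicle. The Lcn2 promoter region measured 3.27 and 3.47 in LSD1i, 4.09 and 4.21 in Combo, 4.30 and 4.09 in CER and 3.77 and 3.41 in Vehicle (rise 0.78 ± 0.20, adjusted p = 0.00841). Its LSD1i mean was below that of Vehicle, and the authors' deposited table for LSD1i lists it at -0.52.

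Mmp8 was of the other kind. Its promoter region stood at 4.26 and 4.32 in Vehicle, 5.68 and 5.75 in LSD1i and 6.21 and 5.94 in Combo, so most of its signal over Vehicle was already there with the LSD1 inhibitor. The further rise was 0.36 ± 0.11 (adjusted p = 0.0377). Fpr1 was similar, with 2.51 and 3.55 in Vehicle, 4.29 and 4.27 in LSD1i and 4.61 and 4.93 in Combo. Both CER libraries were above both Vehicle libraries at 7 of the 8 regions, Fpr1 being the exception, and both 6MP libraries at 4. Over the 34229 regions with a peak in all these libraries, 24.6% and 12% did so. Among 1125 higher regions of the fit on 4 libraries, the shares were 48.0% and 33.3%.

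**Figure D4:**
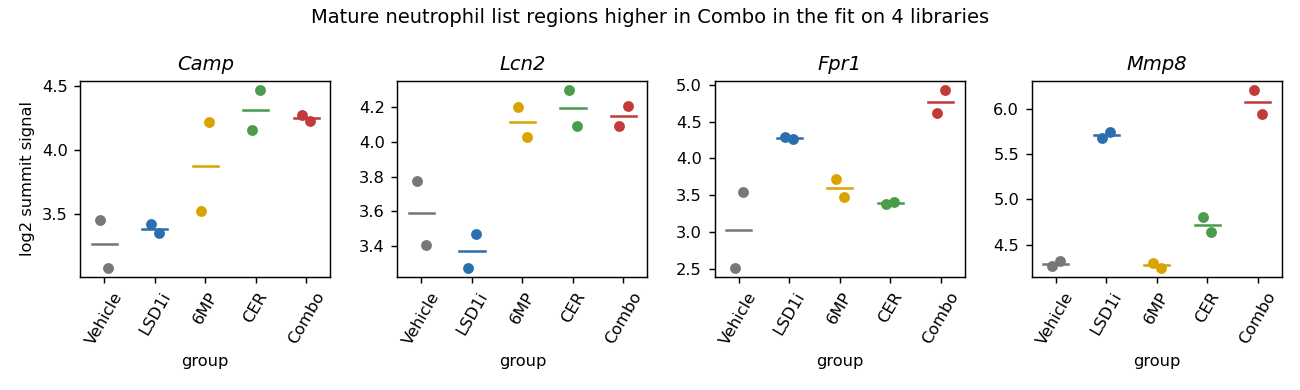
Summit signal (log2) of the regions at Camp, Lcn2, Fpr1 and Mmp8, which were higher in Combo in the fit on 4 libraries, by day 2 group; points are the 2 libraries of a group and bars their mean, and each panel has its own vertical scale. At Camp and Lcn2 the CER libraries reach the Combo level, while at Mmp8 and Fpr1 the LSD1i libraries are above Vehicle, 6MP and CER.

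Monocyte and macrophage genes came next. Of 131 regions, 12 rose (9.16%, against 2.9% of all regions) and 2 fell (1.53%, against 2.34%), with a median difference of -0.03. A region inside Ly86, which encodes the MD-1 partner of a Toll-like receptor homologue, measured 2.31 and 2.58 in LSD1i and 3.69 and 3.63 in Combo, from pileups of 19, 27, 68 and 67 fragments (1.21 ± 0.24, limma on 4 libraries, adjusted p = 0.00048). All 3 called regions nearest to F13a1, the gene of coagulation factor XIII subunit A in monocytes, rose, by 1.21, 0.83 and 0.55. The region that rose by 1.21 lies inside the gene, and the others 71602 and 54906 bases from it. Both called regions near Tlr4, the lipopolysaccharide receptor, rose by 0.97 and 0.72, and the region of Tlr2 by 0.59. Other members that rose were Cd14, Lgals3, Itgam (integrin alpha M, or CD11b) and Mpeg1 (perforin-2). A region 21578 bases from the chemokine receptor gene Ccr2 fell by 0.46 ± 0.14 (adjusted p = 0.0272). Without Combo replicate 2 its difference was -0.27. One region of the scavenger receptor gene Marco fell by 0.82. Another region nearest to Marco went the other way, with 33 and 41 fragments in Combo and no peak in either LSD1i library. All 12 higher calls were also made with centring by intensity and with quantile normalization, where neither lower call was made, and 4 of the 12 remained without Combo replicate 2. With scaling by depth 25.2% of the list was higher, against 22.7% of all regions.

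Granule genes of less mature and of other granulocytes were among the higher regions too. The primary granule list had 2 higher (5.71%, against 2.9% of all regions) and 0 lower (against 2.34%) of 35 regions. In lists this short, single regions make up several percent. The promoter region of Ms4a3, a membrane protein of granulocyte-monocyte progenitors, measured 3.35 and 3.28 in LSD1i and 3.92 and 4.66 in Combo (0.98 ± 0.20, limma on 4 libraries, adjusted p = 0.000698), while the libraries labelled 6MP stood at 4.30 and 4.65 and CER at 4.58 and 4.47. A region inside Ctsc, whose protease activates granule serine proteases, rose by 0.78 ± 0.24. Markers of mast cells, basophils and eosinophils had 3 higher (7.89%) and 0 lower of 38 regions. Those that rose were at Prg2 (eosinophil major basic protein) by 1.10, Mcpt8 (a basophil protease) by 0.72 and Cpa3 (mast cell carboxypeptidase) by 0.39. None of these 3 and neither of the granule calls remained without Combo replicate 2.

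Of 176 regions of progenitor genes, 9 rose (5.11%, against 2.9% of all regions) and 4 fell (2.27%, against 2.34%). A region inside Myb, a factor that keeps progenitors immature, measured 4.35 in both LSD1i libraries and 5.12 and 5.40 in Combo (0.91 ± 0.14, limma on 4 libraries, adjusted p = 4.08e-06). Near the cell cycle kinase gene Cdk6, 2 regions rose, by 0.61 and 0.50, and another fell by 0.97. Regions nearest to Kit, the stem cell factor receptor, Runx1 and Hlf fell by 0.58, 0.44 and 0.79. These lay 38623, 48127 and 1892 bases from the gene, in that order. Regions of Bcl2 and Flt3 were among those that rose. Without Combo replicate 2, 3 of the higher calls remained, those at Myb and Cdk6 among them, and 1 lower call was made, at Cdk6. Among myeloid transcription factors 5 of 183 regions rose and 5 fell, 2.73% each way and near the shares of all regions. The region 5248 bases from Klf6 rose by 0.90. Those 17988 bases from Batf and 46289 bases from Fos fell by 0.70 and 0.83. Without Combo replicate 2 the difference at Fos was -0.40 (adjusted p = 0.690), and 1 higher and no lower call of this list was made.

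**Figure D5:**
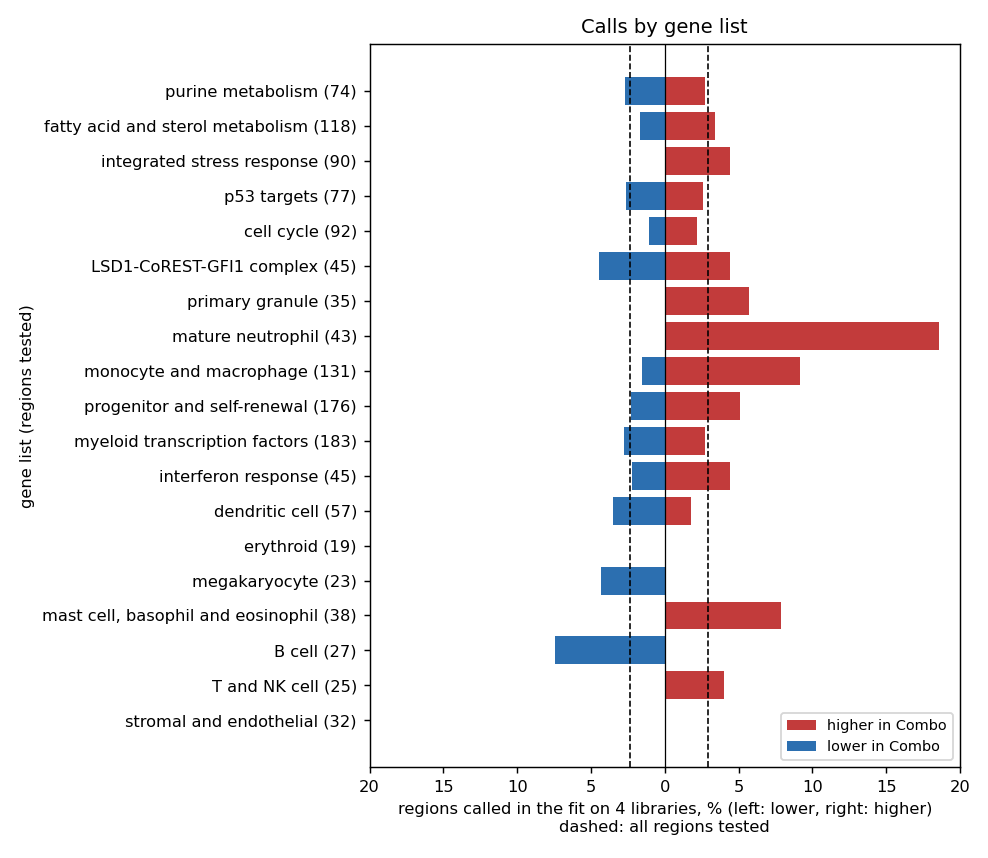
Share of the regions of each gene list (number of regions in brackets) called in the fit on 4 libraries, higher in Combo to the right and lower to the left, in percent; dashed lines mark 2.9% and 2.34%, the shares of all regions tested. The mature neutrophil bar reaches 18.6% to the right with none to the left, while erythroid and stromal lists have no call.

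In purine metabolism, on which mercaptopurine acts, 2 of 74 regions rose and 2 fell, 2.70% each way and near the 2.9% and 2.34% of all regions. A region inside Nt5c2, a nucleotidase of purine monophosphates, rose by 0.65 ± 0.16, and another listed under Nt5c2 but inside Ina fell by 0.84. Impdh1, the enzyme that commits purines to guanine nucleotides, had a region that fell by 0.45 ± 0.13. A promoter window of Nt5c2 itself lay in a further region, nearest to another gene, that rose by 0.45. No purine region was called without Combo replicate 2. In fatty acid and sterol metabolism, on which cerulenin acts, 4 of 118 regions rose (3.39%) and 2 fell (1.69%), also near these shares, with a median difference of -0.05. The region 124 bases from Acaca, which encodes acetyl-CoA carboxylase 1, overlaps the promoter of its neighbour Tada2a and measured 5.14 and 5.09 in LSD1i and 5.65 and 5.87 in Combo (0.64 ± 0.12, limma on 4 libraries, adjusted p = 0.000175). It went the other way from the Acacb region above. Regions inside Cpt1a, the carnitine palmitoyltransferase that malonyl-CoA inhibits, and Acsl1 (an acyl-CoA synthetase) rose by 0.48 and 0.67. A region 68130 bases from Abca1 (the cholesterol exporter) rose by 0.38. Another, 68897 bases from Insig1, a brake on sterol synthesis, fell by 0.94. In the fit on 12 libraries only Acacb of these lists passed.

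The shares of the next lists are to be read against the 2.9% higher and 2.34% lower of all regions. The integrated stress response list had 4 higher (4.44%) and 0 lower of 90 regions, nearest to Xbp1 (0.93 ± 0.20), Slc7a11 (2 regions, 0.61 and 0.48) and Ddit4 (0.44). The Slc7a11 region that rose by 0.61 lies inside the gene and the other 84657 bases from it. Xbp1 encodes a factor of the unfolded protein response and Slc7a11 the cystine importer. Among p53 targets Polk and Gadd45a rose and Btg2 and Eda2r fell, of 77 regions (2.60% each way). The cell cycle list had only the Cdk6 regions, 2 higher (2.17%) and 1 lower (1.09%) of 92. For the LSD1-CoREST-GFI1 complex 2 of 45 regions rose, at Gfi1b (0.45) and the Phf21a promoter (0.54), and 2 fell, both inside Gse1 (-1.08 and -0.48), 4.44% each way. None of the calls of this complex was made without Combo replicate 2, where the difference at Phf21a was 0.14. Without that library the stress response differences were 0.99 at Xbp1, 0.50 and 0.52 at Slc7a11 and 0.43 at Ddit4. Those of p53 targets were then 0.88 at Polk, 0.46 at Gadd45a, -0.89 at Btg2 and -0.58 at Eda2r. The interferon list had 2 higher (4.44%) and 1 lower (2.22%) of 45.

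Markers of other cell types had few regions and few calls, in which single regions make up several percent. Dendritic cell markers had 1 higher (Flt3) and 2 lower (Cd83 and Clec9a) of 57 regions, B cell markers 0 and 2 of 27 (7.41% lower, against 2.34% of all regions), T and NK cell markers 1 and 0 of 25, megakaryocyte markers 0 and 1 of 23. Erythroid markers (19 regions) and stromal and endothelial markers (32 regions) had none. The median difference of these marker lists ran from -0.16 in the megakaryocyte list to +0.01 in the erythroid list, against -0.04 over all regions. Tpmt, Elane and Zbtb46 had no region with a peak in all 4 libraries and were not tested.

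Regions called in the fit on 4 libraries differed in position by direction. RefSeq promoter windows, which reach from 250 bases before a gene's start to 50 after it, were used for all mouse chromosomes but one. On the chromosomes used they overlapped 22.5% of 42493 tested regions, 19.0% of 1234 higher and 5.39% of 1002 lower ones. Among protein-coding promoters the highest rise was at Pirb, an inhibitory receptor of myeloid cells, with 2.65 and 2.47 in LSD1i and 3.85 and 3.67 in Combo (1.20 ± 0.24, limma on 4 libraries, adjusted p = 0.000376, and 0.00781 without Combo replicate 2). Pirb belongs to a cluster of close copies. The largest fall was at a start within Ace, the gene of angiotensin-converting enzyme, with 4.04 and 3.63 in LSD1i and 3.06 and 2.32 in Combo (-1.15 ± 0.24, adjusted p = 0.000655). Sequences are shown for Pirb and Ace, as the largest changes, and for Camp, Lcn2 and Ms4a3, 3 of the granulocyte promoters described above. Other promoters that rose, such as Mmp8, Mcpt8, Runx3 and Myb, are not shown. They are the 250 bases before the start in RefSeq on GRCm38.p6, read along the gene, with capitals marking the ETS letters GAGGAA, the core bound by PU.1, and the C/EBP letters TTGCNNAA on either strand.

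Pirb (chr7:3720383-3720632, minus strand): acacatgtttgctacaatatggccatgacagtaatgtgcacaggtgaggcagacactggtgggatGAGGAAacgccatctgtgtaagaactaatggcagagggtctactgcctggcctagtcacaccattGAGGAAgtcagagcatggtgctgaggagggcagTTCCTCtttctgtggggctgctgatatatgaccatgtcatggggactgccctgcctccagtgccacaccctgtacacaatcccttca
Camp (chr9:109849457-109849706, minus strand): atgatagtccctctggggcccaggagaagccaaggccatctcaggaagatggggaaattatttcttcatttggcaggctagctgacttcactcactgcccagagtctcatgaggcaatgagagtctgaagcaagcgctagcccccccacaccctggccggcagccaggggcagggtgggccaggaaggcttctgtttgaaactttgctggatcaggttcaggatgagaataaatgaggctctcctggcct
Lcn2 (chr2:32387740-32387989, minus strand): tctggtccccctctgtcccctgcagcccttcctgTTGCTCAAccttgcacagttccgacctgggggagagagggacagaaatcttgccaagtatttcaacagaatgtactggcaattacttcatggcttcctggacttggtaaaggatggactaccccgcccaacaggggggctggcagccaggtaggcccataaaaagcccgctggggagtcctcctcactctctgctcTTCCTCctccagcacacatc
Ms4a3 (chr19:11640852-11641101, minus strand): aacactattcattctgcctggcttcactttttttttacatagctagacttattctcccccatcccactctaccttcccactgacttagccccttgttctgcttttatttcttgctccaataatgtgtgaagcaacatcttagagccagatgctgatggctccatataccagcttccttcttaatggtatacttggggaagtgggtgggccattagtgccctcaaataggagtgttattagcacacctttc
Ace (chr11:105974939-105975188, plus strand): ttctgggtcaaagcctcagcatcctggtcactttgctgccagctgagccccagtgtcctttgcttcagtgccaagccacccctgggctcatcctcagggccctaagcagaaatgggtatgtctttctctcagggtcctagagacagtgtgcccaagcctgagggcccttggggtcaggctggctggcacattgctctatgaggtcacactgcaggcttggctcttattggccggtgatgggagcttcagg

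The Pirb window held 3 matches to the ETS letters, Lcn2 held 1 and 1 match to the C/EBP letters, and Camp, Ms4a3 and Ace held neither. Of those not shown, the Mmp8 window held 1 match to each and the Mcpt8 window 1 to the ETS letters. Over the 12844 windows in tested regions, 23.4% held the ETS letters and 7.54% the C/EBP letters. Among the 322 windows in higher regions these shares were 22.4% and 7.14%, and among the 61 in lower regions 41.0% and 1.64%. Windows of 1 region can overlap, and a match is a run of letters and not a measured binding site.

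Promoters that rose also differed between the replicates of other groups. The names of Vehicle replicate 1, 6MP replicate 2, CER replicate 1 and Combo replicate 2 carry the letter R, whose meaning the labels do not give. At the 234 promoter regions higher in Combo, the library with the letter exceeded its partner by a median of 0.66 in Vehicle, 0.52 in 6MP, 0.31 in CER and 0.32 in Combo. Over all 9565 promoter regions these medians were 0.07, 0.34, -0.08 and -0.01. The Kcmf1 promoter, of a ubiquitin ligase gene, is an example, with 5.17 and 5.15 in LSD1i and 5.73 and 6.34 in Combo, but 6.52 and 5.36 in Vehicle. At the 1032 higher regions outside promoters the medians were 0.04, 0.19, 0.02 and 0.08. No LSD1i library carries the letter, so the letter moves with the comparison through Combo replicate 2. With the letter as a term in the fit on 12 libraries, 135 regions were higher and 39 lower. All 29 regions named above were among them, but only 2 of the 24 higher and 0 of the 5 lower ones overlap a promoter window. With this term the difference went from 0.54 to 0.11 at the Phf21a promoter, 0.45 to 0.14 at Bcl2 and 0.44 to 0.16 at Runx3. It went from 0.86 to 0.77 at Camp and from 0.78 to 0.71 at Lcn2. The part of the letter in the calls on 4 libraries was not tested further.

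Regions whose peak was listed in 1 group only could not be tested, since a library with no peak gives no value. A peak in both Combo and neither LSD1i library was found at 1921 regions, 2.95% of the 65144, and the reverse at 828, 1.27%. Both sets were weak, with a median pileup of 26 fragments and 21.5 fragments. Of those on the chromosomes whose promoter windows were used, promoters made up 2.05% and 2.75%. Of the gained regions 490, and of the lost regions 261, had no peak in any other library.

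Among the gained regions with no peak elsewhere was one 1470 bases from Slc11a1, which encodes the metal transporter of phagosomes (chr1:74373401-74373719). The Combo pileups were 186 and 238 fragments, 2.85 and 3.05 times the local background. A region inside Cd34, a surface protein of stem and progenitor cells, had 159 and 200 fragments in Combo, 2.81 and 3.26 times the local background, and no peak elsewhere. Smaller ones were near Sox4, a factor of progenitors (45 and 34 fragments), and Asns, asparagine synthetase of the stress response (36 and 44). Depdc5, which encodes a subunit of the GATOR1 complex that restrains mTORC1, showed the other pattern. A region inside it had 82 and 80 fragments in Combo and 34 to 88 in all 8 Vehicle, 6MP, CER and Day0 libraries, and was missing only from both LSD1i lists. Gained regions of this last kind, with a peak in all 8 other libraries, numbered 62 of 1921, and 10 of 828 lost regions had it. Of the 65144 regions with a peak in any of the 4 libraries, 33920 had a peak in all 8 others.

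Lost regions with no peak in any other group lay 3484 bases from Crlf2, a receptor chain for thymic stromal lymphopoietin (199 and 227 fragments in LSD1i), and inside Coro1c, an actin-binding coronin (118 and 131). These pileups were only 2.04 and 2.25 times the local background at Crlf2, and 3.32 and 3.48 times at Coro1c. The promoter of Ctss, the gene of the antigen-processing protease cathepsin S, had a peak in LSD1i only, with 45 and 67 fragments. The absence of a peak means only that none was listed at a q-value of 0.01 or less. The number of regions with a peak in both Combo and neither LSD1i libraries was 5009 when LSD1i replicate 2 was left out, and 4637 and 4226 when Combo replicates 1 and 2 were left out in turn. The number of regions with a peak in both LSD1i and neither Combo libraries was 4046 and 2030 without LSD1i replicates 1 and 2, and 1978 and 1729 without Combo replicates 1 and 2. With a library left out, the condition covers the remaining libraries only, so these counts can only grow.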

How the data were processed

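ATAC-seq reads of 12 libraries in 6 groups of 2 were processed by the authors. MACS2 2.1.2, DiffBind and the build mm10 are named in the submitters' processing notes, as are Bowtie2, Trimmomatic 0.38, Picard 2.18.26 and SAMtools 1.9. The deposited peak lists give a fold of the summit over its local background, -log10 p-values and -log10 q-values, and a score that is the whole part of 10 times the -log10 q. The lists are named as filtered, and the filter is not given in the sources used here. The authors' deposited tables of each treatment against Vehicle give log2 folds and an FDR.

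Summit pileups were recovered from the fold and the -log10 p of each peak, and were whole numbers of fragments within a tolerance of 0.001 in -log10 p. The summit signal is log2 of pileup over the smallest background of the library, centred on its median over regions called in all 12 libraries. limma 3.58.1 in R 4.3.3 (empirical Bayes with a trend) was fitted to all 12 libraries, with a library that had no peak left out of that region's fit, and p-values were adjusted by Benjamini-Hochberg over all regions tested. The scripts were tested on simulated data. Python 3.11.15 was used for the rest. An exact permutation test of 2 against 2 cannot go below p = 0.333. P-values measure the spread between these libraries, which may be technical.

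Genes are the nearest protein-coding gene end in RefSeq (GRCm38.p6) within 100 kb. Named regions were all lower calls, the 12 highest calls, the strongest gained and lost regions and, for 19 lists of 392 genes, those with the lowest adjusted p. The other higher calls, calls in the fit on 4 libraries, protein-coding promoters and gained or lost regions with the highest -log10 q were named after their values were seen. The comparison and the gene lists were chosen with earlier results of these data known. Replicate numbers do not pair the libraries. Some genes of the lists count in the totals and are not reported here by name.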

Additional observations from a re-analysis of the deposited data

How the results depend on the processing

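The direction of the 29 called regions was the same under every alternative in which they had a value. Fits that changed only the estimate of spread, or left out 1 of the 4 libraries, could not have changed this direction. Their number, 29, was 140 with scaling by depth, 46 with centring by intensity, 84 with quantile normalization, 4 with the mean over summits, 2289 in the fit on 4 libraries, 1788 with array weights and 174 with the library letter as a term. Leaving out each LSD1i or Combo replicate gave 0 calls each time; the lone library of that group was then assumed to vary like the other groups. In alternatives chosen after seeing the data, the count was 109 without both 6MP libraries, and on 4 libraries 9953 with scaling by depth, 1593 with centring by intensity, 1673 with quantile normalization and 475 to 2594 with 1 library left out (1021 and 1049 without LSD1i replicates 1 and 2). With depth scaling on 4 libraries, differences turned upward for regions of Gfi1 (0.36), Ppat (0.35), Atf4 (0.37) and Kit (0.36). The departure from the sum of the single drugs had 0 to 3 calls with a replicate left out. For regions with a peak in both Combo and neither LSD1i libraries the count was 2806 to 5009 with a replicate left out, and for regions with a peak in both LSD1i and neither Combo libraries 1729 to 4046. These 2 counts can only grow when a replicate is left out, since the condition then covers the remaining libraries only. The cause of the other changes was not tested, apart from fewer libraries in the fits that leave one out. Same-numbered libraries had a correlation of -0.03 between their deviations, so the numbers do not pair them, and the fit with a replicate block called 48 regions on 12 libraries and 2271 on 4. Fragment pileups near 20 at the weakest regions limit what can be seen there.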
